A study of Homo sapiens with 4 samples.

Results

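The HOX cluster genes were described in NCI-H520, an established cell line from a squamous cell carcinoma of the lung, over 2 RNA-seq libraries of cells exposed to Hx1R8 at 10 µM over 12 h (Hx1R8) and 2 libraries of cells that received ultrapure water (Vehicle). The members were all rows of the deposited count table named HOX, then a letter from A to D, then digits, which gave 39 of 28277 genes. All 4 libraries were labelled wild type and came from the same line, so there was 1 genetic background. The labels do not describe the make-up of Hx1R8, and the title of the series names SOX2 self-association as its subject. Separate cultures are not stated for the replicates, so the p-values speak only to the spread among these 4 libraries, which may be technical. Total counts ran from 17259403 to 20920857 per library, and 4114 to 5088 reads per library fell on the HOX cluster genes. The squamous label was only partly matched by defining markers: SOX2 was at 522 and 498 CPM in Hx1R8 against 541 and 515 CPM in Vehicle, KRT6A at 17.8 and 17.1 CPM in Hx1R8 against 19.9 and 19.7 CPM in Vehicle, and DSC3 and KRT5 between 1.16 and 7.61 CPM, while KRT14 and DSG3 had no read and TP63 stayed below 1 CPM in every library. Here CPM is reads of a gene per 1000000 reads with library sizes scaled by TMM factors.

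HOX genes encode homeodomain transcription factors that give cells along the head-to-tail axis and along the limbs their positional identity. In mammals they lie in 4 clusters, and genes at the same position in different clusters form a paralog group, numbered from 1 at the 3′ end to 13 at the 5′ end. Low-numbered genes act in anterior tissues such as the hindbrain, high-numbered genes act in posterior tissues such as the lumbar and sacral trunk, the limbs and the urogenital tract, and adult cells usually keep a part of the pattern of their origin. In the developing mouse lung, genes of the low and middle groups of HoxA and HoxB are known to be active, Hoxa5 among them. The HOXA cluster was listed on chromosome 7 (27092995 to 27200091, minus strand) with 11 genes, HOXB on chromosome 17 (48528526 to 48728750, minus strand) with 10, HOXC on chromosome 12 (53938831 to 54056030, plus strand) with 9 and HOXD on chromosome 2 (176092721 to 176190907, plus strand) with 9, all on hg38.

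All 4 clusters held transcribed genes. Bulk libraries cannot tell fewer cells with a transcript from less transcript in each cell. At a mean of 1 CPM or more over the 4 libraries stood 28 of the 39 genes, with 8 of 11 in HOXA, 6 of 10 in HOXB, all 9 in HOXC and 5 of 9 in HOXD. Of the 28, 15 reached 5 CPM. The values closest to the 1 CPM limit were those of HOXC4, inside it at 1.08 CPM, and HOXA4, outside it at 0.938 CPM. The highest member, HOXC10, had 65.9 TPM (a transcript level, reads divided by listed exon length and scaled to a sum of 1000000) as a mean over all libraries, which placed it at rank 3169 among all genes of the table and above 78.1% of the genes tested. The tenth, HOXC13, lay above 41.5% of them.

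**Figure D1:**
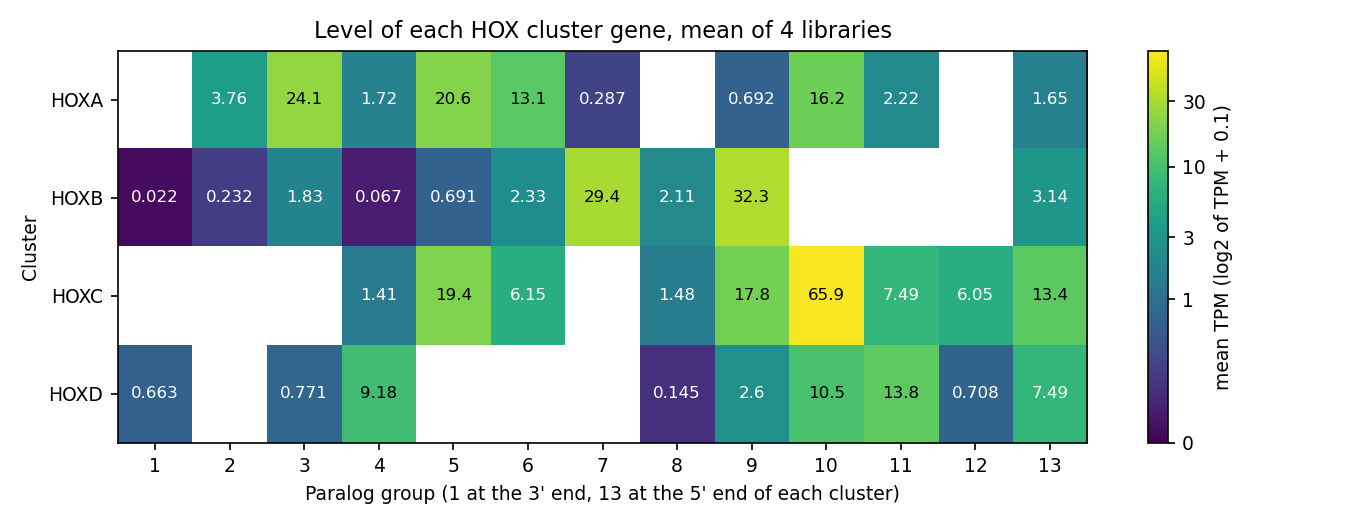
Mean TPM over the 4 libraries of each HOX cluster gene, by cluster (rows) and paralog group (columns), with white for positions without a gene or not reported here and colour on a log2 scale. HOXC10 stands highest at 65.9 TPM, and HOXB1, HOXB2 and HOXB4 lie at 0.232 TPM or less.

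By summed level, HOXC came first and HOXD last. In TPM, the HOXC genes summed to 134 and 136 in Hx1R8 and 139 and 147 in Vehicle. The HOXA genes summed to 95.6 and 92.9 TPM in Hx1R8 and 92.1 and 94.6 TPM in Vehicle. HOXB stood at 71.2 and 72.2 TPM in Hx1R8 and 72.3 and 72.7 TPM in Vehicle, and HOXD at 43.7 and 50.7 TPM in Hx1R8 and 46.7 and 42.4 TPM in Vehicle. The order of the clusters was the same in every library, with no overlap between neighbouring clusters. As shares of the summed HOX level, HOXC held 38.8 ± 0.15% in Hx1R8 and 40.4 ± 0.984% in Vehicle, and HOXA 27.1 ± 0.957% in Hx1R8 and 26.4 ± 0.184% in Vehicle (SD, n = 2 each). HOXB held 20.6 ± 0.103% in Hx1R8 and 20.5 ± 0.167% in Vehicle, and HOXD 13.5 ± 1.21% in Hx1R8 and 12.6 ± 1% in Vehicle (SD, n = 2 each). With 2 libraries in each group no exact permutation test of a share could reach a p of 0.05, and none was run.

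By position along the clusters, the 16 posterior genes (groups 9 to 13) held more than the 15 central and 8 anterior genes together. They summed to 57.2 ± 2.71% of the HOX level in Hx1R8 and 57.9 ± 0.31% in Vehicle, the central genes (groups 4 to 8) to 30.8 ± 2.39% in Hx1R8 and 30.7 ± 0.197% in Vehicle, and the anterior genes (groups 1 to 3) to 12 ± 0.33% in Hx1R8 and 11.3 ± 0.113% in Vehicle (SD, n = 2 each). HOXC10 alone held 18.8% of the whole as a mean over the libraries, and without it the posterior genes no longer exceeded the rest. The clusters differed in the shares of these positions. Of the anterior sum, nearly all came from HOXA, whose 3 anterior genes held 10.7% of the whole HOX level against 0.593% for the 3 of HOXB and 0.41% for the 2 of HOXD. In HOXC, which has no anterior gene, the 5 posterior genes held 31.5% of the whole, the most of any stretch. Paralog group 10 was the highest group at 26.4%, followed by group 9 at 15.2% and group 5 at 11.6%.

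**Figure D2:**
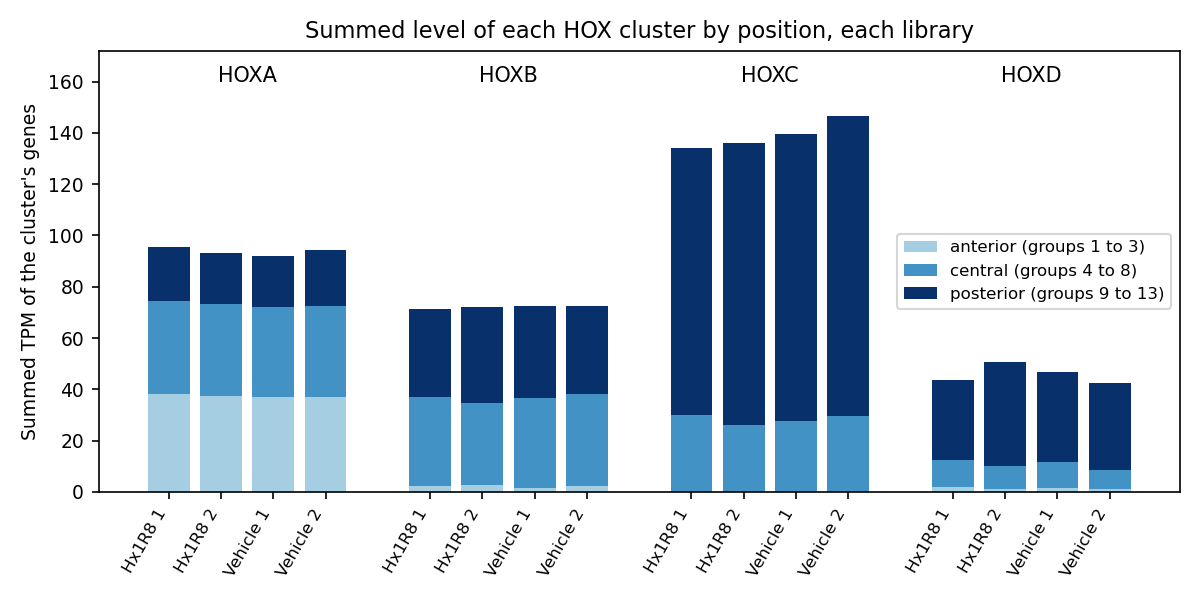
Summed TPM of each HOX cluster in each library (bars, Hx1R8 left of Vehicle), split into anterior, central and posterior paralog groups. HOXC reaches 134 to 147 TPM, mostly from posterior genes, and HOXA is the one cluster with a large anterior part.

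Among posterior genes, HOXC10, which acts in hindlimb and lumbar patterning in mouse, led in every library. HOXC10 (chromosome 12, 53985146 to 53990278) was at 60.3 and 65.8 TPM in Hx1R8 and 66.7 and 71 TPM in Vehicle, and 18.8% of the summed HOX level was its own. HOXB9, a gene of thoracic and mammary patterning in mouse, was second (chromosome 17, 48621157 to 48626358), at 30.8 and 34.3 TPM in Hx1R8 and 32.6 and 31.3 TPM in Vehicle. HOXC9, which sets thoracic motor neuron identity in mouse, was at 18.6 and 17.6 TPM in Hx1R8 and 18.8 and 16.1 TPM in Vehicle. HOXA10, known for its part in the uterus, was at 16.5 and 15 TPM in Hx1R8 and 15.8 and 17.5 TPM in Vehicle. HOXC10 lay above every other member in each library, whereas HOXC9 and HOXA10 overlapped each other at their listed exon lengths.

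The remaining posterior genes at 5 CPM or more were HOXD11, HOXC13, HOXD10, HOXD13, HOXC11 and HOXC12. HOXC13, a regulator of hair keratin genes, was at 11.9 and 13 TPM in Hx1R8 and 13.8 and 15 TPM in Vehicle. HOXD11, which acts with HOXA11 in forelimb and kidney formation in mouse, was at 11.7 and 15.9 TPM in Hx1R8 and 13.3 and 14.4 TPM in Vehicle. HOXD13, the digit patterning gene altered in inherited synpolydactyly, was at 7.54 and 9.04 TPM in Hx1R8 and 6.71 and 6.68 TPM in Vehicle. HOXD10, a hindlimb patterning gene in mouse, lay between 9.44 and 11.5 TPM over the 4 libraries, HOXC11 between 6.81 and 8.43 TPM and HOXC12 between 5.5 and 6.41 TPM. Below 5 CPM came HOXB13, a prostate gene, with a mean of 3.14 TPM, HOXD9 with 2.6 TPM, HOXA11, needed in kidney and uterus, with 2.22 TPM and HOXA13, a partner of HOXD13 in digit formation, with 1.65 TPM. Among those at 5 CPM or more, groups overlapped for HOXD11, HOXD10, HOXC11 and HOXC12 but not for HOXC13, lower in both Hx1R8 libraries, nor for HOXD13, higher in both.

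Among central genes, HOXB7, HOXA5 and HOXC5 led. HOXB7 (chromosome 17, 48607233 to 48611017), a gene often studied as overexpressed in breast and other carcinomas, was at 29.1 and 26.8 TPM in Hx1R8 and 30.5 and 31.1 TPM in Vehicle. HOXA5 (chromosome 7, 27141052 to 27143681), needed for normal lung and trachea formation in mouse, was at 20 and 20 TPM in Hx1R8 and 21.9 and 20.3 TPM in Vehicle. HOXC5 was at 20.8 and 17.8 TPM in Hx1R8 and 18.6 and 20.2 TPM in Vehicle. Both Hx1R8 libraries lay below both Vehicle libraries for HOXB7 and HOXA5, and the groups overlapped for HOXC5. Below 5 CPM came HOXA6 with a mean of 13.1 TPM over all libraries, HOXD4 with 9.18 TPM and HOXC6 with 6.15 TPM, followed by HOXB6 at 2.33 TPM, HOXB8 at 2.11 TPM, HOXC8 at 1.48 TPM and HOXC4 at 1.41 TPM.

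Among anterior genes, HOXA3 led. HOXA3 (chromosome 7, 27106190 to 27127020), required for thymus and parathyroid formation in mouse, was at 23.7 and 23.9 TPM in Hx1R8 and 24.8 and 24.1 TPM in Vehicle. Both Hx1R8 libraries lay below both Vehicle libraries. HOXA2, the selector gene of the second branchial arch, had 43 and 50 reads in Hx1R8 and 27 and 31 reads in Vehicle, or 4.56 and 4.41 TPM in Hx1R8 and 2.82 and 3.26 TPM in Vehicle. HOXB3 was the one anterior gene outside HOXA past 1 CPM, with a mean of 1.83 TPM.

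**Figure D3:**
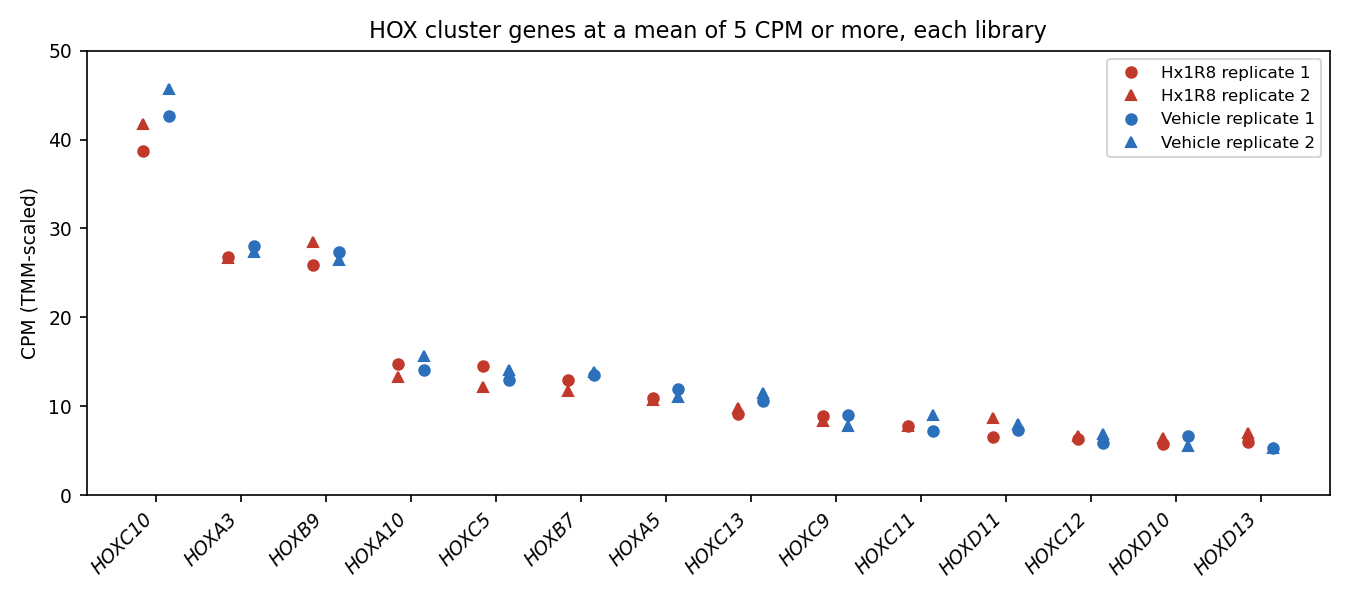
CPM in each library (circles replicate 1, triangles replicate 2, Hx1R8 left of Vehicle) of 14 HOX cluster genes at a mean of 5 CPM or more, ordered by mean CPM. HOXC10 lies between 38.7 and 45.7 CPM, all others below 30 CPM.

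The 11 genes below 1 CPM were HOXA4, HOXA7, HOXA9, HOXB1, HOXB2, HOXB4, HOXB5, HOXD1, HOXD3, HOXD8 and HOXD12. HOXB1, a gene of facial motor neurons, had 0 and 0 reads in Hx1R8 and 0 and 1 reads in Vehicle. HOXB4, known from blood stem cell expansion, had 2 and 0 reads in Hx1R8 and 1 and 0 reads in Vehicle. A floor of 3 reads corresponded to 0.143 to 0.174 CPM per library, so HOXB1 and HOXB4 were not detectable above it at this depth, a limit that covers counting error only. HOXD8 had 4 and 3 reads in Hx1R8 and 1 and 1 reads in Vehicle, and HOXB2 3 and 4 reads in Hx1R8 and 0 and 2 in Vehicle. The other 7 had between 2 and 23 reads per library.

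The pattern along each cluster was broken rather than graded, with scarce genes between more abundant neighbours. HOXA4, at a mean of 1.72 TPM, lay between HOXA3 at 24.1 TPM and HOXA5 at 20.6 TPM, as log2 ratios of levels -3.81 (HOXA4 over HOXA3) and 3.58 (HOXA5 over HOXA4). HOXB8, at 2.11 TPM, lay between HOXB7 at 29.4 TPM and HOXB9 at 32.3 TPM, with log2 ratios of -3.80 (HOXB8 over HOXB7) and 3.93 (HOXB9 over HOXB8). HOXD12, at 0.708 TPM, lay between HOXD11 at 13.8 TPM and HOXD13 at 7.49 TPM, with log2 ratios of -4.29 (HOXD12 over HOXD11) and 3.4 (HOXD13 over HOXD12). In none of these did any library of the scarce gene reach any library of its neighbours. HOXA7 and HOXA9, at 0.287 and 0.692 TPM, separated HOXA6 from HOXA10, and HOXD8 at 0.145 TPM followed HOXD4.

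Overlapping annotation bears on several of these levels. How reads on bases shared by 2 genes were counted is not stated, nor whether strand was used. HOXA7 has 25.3% of its exon bases to itself, the rest being shared with the antisense gene HOXA-AS3, and HOXA9 has 27.6%, the rest shared with the read-through gene HOXA10-HOXA9, which itself had 0 and 0 reads in Hx1R8 and 0 and 1 reads in Vehicle. Divided by unshared bases, HOXA7 came to 1.13 TPM, HOXA9 to 2.50 TPM and HOXA10 to 23.1 TPM, so that HOXA9 stayed below HOXA10 but was no longer under 1 TPM. HOXA10, so divided, ran from 21.4 to 25 TPM over the libraries and no longer overlapped HOXC9, at 16.1 to 18.8 TPM. HOXC4, HOXC5 and HOXC6 share a first exon, with 77.6%, 75.4% and 75.8% of their bases unshared. Divided by those bases they came to 1.82, 25.7 and 8.11 TPM, which put HOXC5 above HOXA3 at 24.7 TPM by mean. All such values divide every read of a gene by its unshared bases. They are therefore too high wherever reads on shared bases were counted. HOXA4 has 86% of its bases unshared, and HOXB8 and HOXD12 share none.

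RefSeq promoter sequences (GRCh38.p14, from 250 bases before to 50 bases after the start) were held for 20 of the 39 genes, and for 19 the start was the same as in the deposited row. They are shown for HOXC5, whose sequence is the same as that of HOXC4, and for both genes of 2 neighbouring pairs with wide differences in level. The C and G of each CpG dinucleotide are in capitals, and each sequence runs 5′ to 3′ on the plus strand.
HOXC5 and HOXC4, chr12:54016638-54016937: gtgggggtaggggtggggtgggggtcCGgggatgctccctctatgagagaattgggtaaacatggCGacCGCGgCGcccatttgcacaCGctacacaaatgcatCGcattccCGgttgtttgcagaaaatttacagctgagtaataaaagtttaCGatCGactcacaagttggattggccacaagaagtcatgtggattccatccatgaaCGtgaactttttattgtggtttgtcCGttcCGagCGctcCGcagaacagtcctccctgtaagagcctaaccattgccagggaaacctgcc
HOXD4, chr2:176151300-176151599: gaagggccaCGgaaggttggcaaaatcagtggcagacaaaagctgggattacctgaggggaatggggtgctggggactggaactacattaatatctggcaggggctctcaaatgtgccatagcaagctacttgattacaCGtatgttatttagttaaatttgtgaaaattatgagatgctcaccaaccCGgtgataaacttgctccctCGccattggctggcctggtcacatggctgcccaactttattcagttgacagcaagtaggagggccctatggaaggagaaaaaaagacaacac
HOXD8, chr2:176129455-176129754: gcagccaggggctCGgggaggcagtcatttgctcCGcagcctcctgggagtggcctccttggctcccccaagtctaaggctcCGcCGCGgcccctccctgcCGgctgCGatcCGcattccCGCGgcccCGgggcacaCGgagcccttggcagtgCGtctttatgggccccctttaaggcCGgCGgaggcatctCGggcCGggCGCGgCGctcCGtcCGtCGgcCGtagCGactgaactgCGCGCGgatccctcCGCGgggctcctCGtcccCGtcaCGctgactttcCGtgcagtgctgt
HOXD11, chr2:176107030-176107329: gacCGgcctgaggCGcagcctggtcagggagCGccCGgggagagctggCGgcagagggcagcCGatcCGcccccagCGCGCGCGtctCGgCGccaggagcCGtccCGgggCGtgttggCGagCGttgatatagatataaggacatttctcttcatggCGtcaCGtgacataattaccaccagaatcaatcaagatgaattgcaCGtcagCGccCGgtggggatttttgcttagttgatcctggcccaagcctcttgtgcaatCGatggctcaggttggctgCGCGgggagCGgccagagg
HOXD12, chr2:176099545-176099844: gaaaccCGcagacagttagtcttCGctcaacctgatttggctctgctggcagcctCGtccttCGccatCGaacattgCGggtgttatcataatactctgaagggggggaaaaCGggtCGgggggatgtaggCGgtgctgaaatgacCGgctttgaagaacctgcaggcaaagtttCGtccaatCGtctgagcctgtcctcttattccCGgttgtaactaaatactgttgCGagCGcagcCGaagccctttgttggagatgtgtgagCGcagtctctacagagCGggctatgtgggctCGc

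HOXC4, HOXC5 and HOXC6 start at the same listed base, 54016888, but stood at 1.41, 19.4 and 6.15 TPM. A listed start is the outermost exon base of a gene's row. Which starts the transcripts read came from was not tested. HOXD4 had the lowest ratio of observed to expected CpG among the 19 promoters, at 0.244 with 4 CpG, and was at 9.18 TPM, whereas HOXD8 had 34 CpG and a ratio of 0.887 and was at 0.145 TPM. HOXD11 and HOXD12 had close ratios of 0.938 and 0.868, at 13.8 and 0.708 TPM. The median ratio over the 19 promoters was 0.871, against 0.579 over all 35116 promoters of the RefSeq table. In the 19, the window that HOXC4 and HOXC5 share is counted for each of these genes. Of HOXD4 and HOXD8 the gene with fewer CpG was the higher, and of HOXD11 and HOXD12 the gene with more. The TATA box letters TATAAA, searched on both strands, were in 3 of the 19 windows (HOXA9, HOXA10 and HOXD13) and in 11.5% of all promoters. The site TGATNNAT of HOX dimers with PBX proteins was in 3 of 19 (HOXA2, HOXB1 and HOXD11) and in 7.4% of all. ACAATG, a core of SOX binding sites, was in 0 of 19 and in 10.8% of all. Such matches describe letters in a window and say nothing of binding.

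The clusters also hold the genes of miR-196 and miR-10, small RNAs known to repress HOX transcripts. Their mature forms are shown because the miR-196 seed recurs in HOX transcripts, with the seed (bases 2 to 8) in capitals, as listed by RefSeq.
hsa-miR-196a-5p, from MIR196A2 in HOXC (chr12:53991762-53991783, plus strand) and MIR196A1 in HOXB (chr17:48632532-48632553, minus strand): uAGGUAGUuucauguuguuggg
hsa-miR-196b-5p, from MIR196B in HOXA (chr7:27169528-27169549, minus strand): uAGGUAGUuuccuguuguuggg
hsa-miR-10a-5p, from MIR10A in HOXB (chr17:48579904-48579926, minus strand): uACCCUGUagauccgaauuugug
The 2 miR-196 forms share the seed AGGUAGU, and miR-10a has ACCCUGU. Mature miRNAs were not measured, and reads on the listed hairpins were 2 and 0 in Hx1R8 and 1 and 2 in Vehicle for MIR196A2 and 0 in all 4 libraries for MIR196A1, MIR196B, MIR10A and MIR10B.

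In the longest 3′ untranslated region of each gene in GENCODE v29 (GRCh38), the complement of the miR-196 seed, ACTACCT, was present in 9 of 39 HOX cluster genes (23.1%) and in 7.28% of 18634 genes of the table. Among the 9 were HOXA5, HOXA7, HOXA9, HOXB1, HOXB6, HOXB7, HOXB13 and HOXC8. HOXA7 held 4 such sites, and HOXA9 and HOXC8 held 2 each. HOXB8, cleaved under the direction of miR-196 in mouse embryos, lacked the exact seed match but held the window closest to the whole complement of miR-196a, with 21 of 22 bases matching. It was the one gene of 18556 scanned with 21 or more. The HOXB8 site is shown with matching bases in capitals, followed by 1 of the HOXA7 sites with the seed match in capitals.
HOXB8 site, chr17:48612770-48612791, minus strand: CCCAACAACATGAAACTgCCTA
HOXA7 site, chr7:27154430-27154451, minus strand: cctactcccctaaaACTACCTa
The median level was 2.33 TPM over the 9 genes with the seed match and 4.9 TPM over the 30 without, and the 9 ranged from 0.0218 TPM in HOXB1 to 29.4 TPM in HOXB7. HOXB8 stood at 2.11 TPM and HOXA7 at 0.287 TPM. Divided by unshared bases, HOXA7 came to 1.13 TPM and HOXA9, also with the seed match, to 2.50 TPM in place of 0.692 TPM. Nothing here tests whether miR-196 acts on them.

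No tested HOX cluster gene passed the test for a difference between Hx1R8 and Vehicle, and for the scarcer ones the data do not bound the difference closely. Counts were tested over the whole table with edgeR's quasi-likelihood test and Benjamini-Hochberg adjustment at 0.05, two-sided. A filter on low counts passed 31 of the 39 genes, without HOXA7, HOXA9, HOXB1, HOXB2, HOXB4, HOXB5, HOXD1 and HOXD8. Of the 31, 0 were called, against 0.0207% of all genes tested, 0 of them higher, against 0.0138%, and 0 lower, against 0.00691%. At an unadjusted p under 0.05 there were 2 of 31, HOXA2 and HOXD13, against 3.39% of all genes tested. DESeq2, with all 39 members among its 20980 genes, called 0 of them, against 1 gene higher and 1 lower over the table. At an unadjusted p under 0.05 DESeq2 had 0 of the 39, against only 50 of the 20980. Of 14482 genes tested with edgeR, 2 were higher and 1 lower in Hx1R8. Without Vehicle replicate 1 these counts were 41 and 38, and without Vehicle replicate 2 they were 13 and 18, still with 0 HOX cluster genes. The lowest adjusted p of a HOX cluster gene in any of these fits was 0.304, for HOXC10 without Vehicle replicate 1 (edgeR, log2 fold change -0.18).

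The tested members lay on both sides of 0 in near equal numbers. Log2 fold changes ran from -0.43 in HOXC4 to 0.58 in HOXD3, 16 of 31 above 0 (51.6%, against 48.9% of all genes tested) and 15 below, with a median of 0.00 against -0.00 over all genes tested. The fold's 95% interval stayed inside 1.5-fold in either direction for 19 of 31 (61.3%), against 81.4% of all genes tested, and inside 2-fold for 26 of 31 (83.9%), against 93.2%. It stayed inside 1.5-fold for 14 of the 15 members at 5 CPM or more (93.3%), against 99.1% of the 5441 genes between 5 CPM and the level of HOXC10. The exception among the 15 was HOXD13. Libraries of the groups did not overlap for 14 of 31 (45.2%), 7 higher and 7 lower in Hx1R8, against 29.8% of all genes tested, of which 14.7% were higher and 15.2% lower. In size the log2 fold changes of these 14 ran from that of HOXA3 (-0.05, with 26.8 and 26.7 CPM in Hx1R8 and 28 and 27.3 CPM in Vehicle) to that of HOXD3 (0.58). Among them were HOXA2 at 0.55, HOXC4 at -0.43, HOXA11 at 0.42, HOXA4 at 0.41 and HOXB3 at 0.33, all below 5 CPM.

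**Figure D4:**
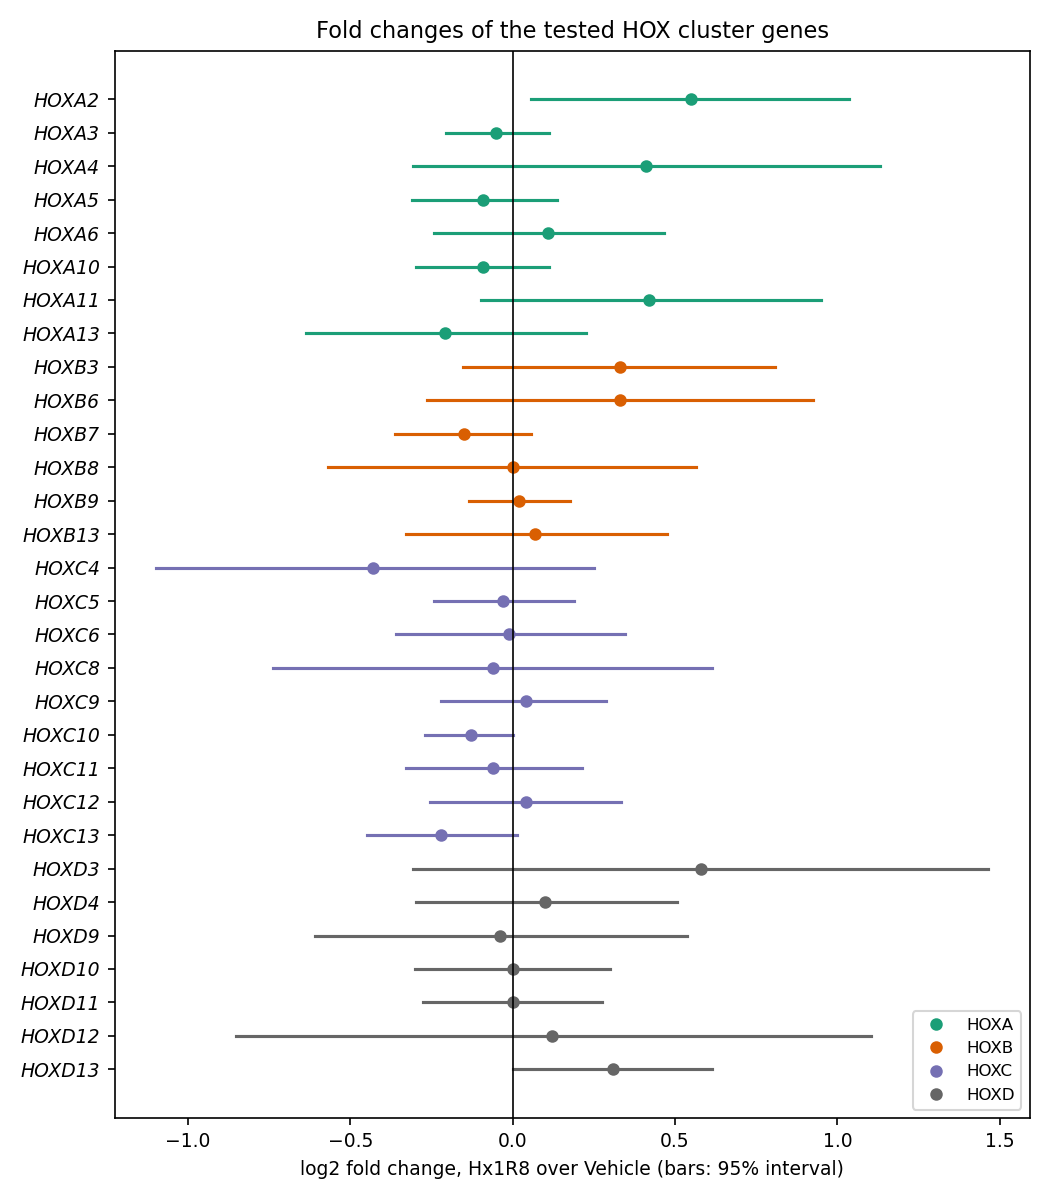
Log2 fold change of Hx1R8 over Vehicle (points) with 95% intervals from edgeR (bars) for 30 of the 31 tested HOX cluster genes, by cluster and paralog group. Values run from -0.43 to 0.58, and the intervals of all but HOXA2 and HOXD13 include 0.

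The members with the smallest unadjusted p were HOXA2, HOXD13, HOXC10 and HOXC13. HOXA2 had a log2 fold change of 0.55 (SE 0.24, edgeR adjusted p = 0.9999, unadjusted p = 0.03), with a 95% interval of the fold from 1.04 to 2.05. HOXD13, at 5.92 and 7.02 CPM in Hx1R8 and 5.26 and 5.26 CPM in Vehicle, was at 0.31 (SE 0.15, edgeR adjusted p = 0.9999, unadjusted p = 0.047). Its value was 0.17 without Hx1R8 replicate 2 and 0.42 without Hx1R8 replicate 1. HOXC10, at 38.7 and 41.8 CPM in Hx1R8 and 42.7 and 45.7 CPM in Vehicle, was at -0.13 (SE 0.07, edgeR adjusted p = 0.9999, unadjusted p = 0.056), with a fold interval of 0.829 to 1. HOXC13, at 9.12 and 9.83 CPM in Hx1R8 and 10.6 and 11.5 CPM in Vehicle, was at -0.22 (SE 0.12, edgeR adjusted p = 0.9999, unadjusted p = 0.068). HOXA2 and HOXD13 were higher and HOXC10 and HOXC13 lower in both Hx1R8 libraries. These 4 genes were picked by p in this same comparison, so that their groups did not overlap adds no support. Of all genes tested 29.8% had groups that did not overlap.

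The other described members at 5 CPM or more had log2 fold changes between -0.15 and 0.04. HOXB7 was at -0.15 (SE 0.10), HOXA10 and HOXA5 at -0.09 each (SE 0.10 and 0.11), HOXC11 at -0.06 (SE 0.13) and HOXA3 at -0.05 (SE 0.08). HOXC5 was at -0.03 (SE 0.11), HOXD10 and HOXD11 at 0.00 (SE 0.15 and 0.14), HOXB9 at 0.02 (SE 0.08) and HOXC9 and HOXC12 at 0.04 (SE 0.13 and 0.14). With 1 library left out, HOXB7 lay between -0.216 and -0.0825, HOXA10 between -0.17 and -0.0105, HOXA5 between -0.137 and -0.0328, HOXC10 between -0.193 and -0.0808 and HOXC13 between -0.275 and -0.151. The fold interval of HOXB9, the second highest member by TPM, was 0.910 to 1.13. For HOXB7 it ran from 0.777 to 1.04, and for HOXA3 from 0.868 to 1.08. Scarcer members were bounded less closely, such as HOXD3, whose fold interval ran from 0.808 to 2.76, and HOXD12, from 0.554 to 2.15.

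**Figure D5:**
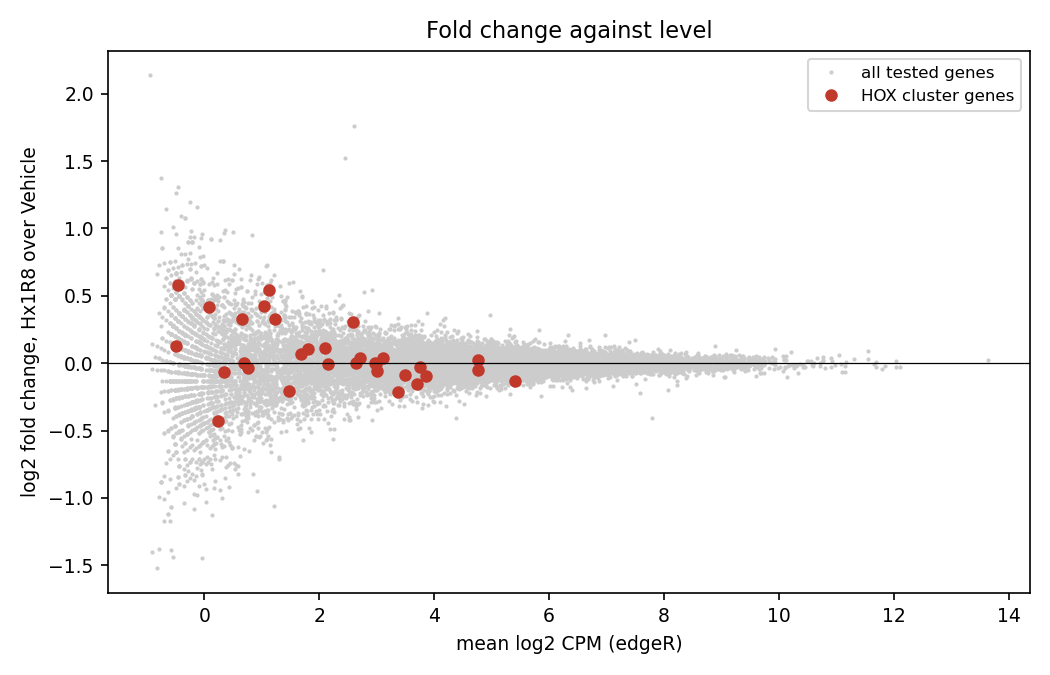
Log2 fold change of Hx1R8 over Vehicle against mean log2 CPM for all 14482 tested genes (grey) and the 31 tested HOX cluster genes (red). The HOX points lie within the grey cloud, and those farthest from 0 are at low levels.

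The lists of related genes held no call. Of 112 genes tested over 11 lists, edgeR called 0, against 0.0207% of all genes tested. At an unadjusted p under 0.05 edgeR had 4 of the 112 (CRABP1, KRT6A and DSC3 among them), against 3.39% of all genes tested. DESeq2 called 0 of the listed genes and had 1 at an unadjusted p under 0.05, against 50 of 20980 genes. The lists were chosen with results of these data known.

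Other transcripts of the clusters included several long noncoding RNAs at levels like those of the HOX genes. Of 25 listed noncoding and read-through genes 23 matched the table, 9 were tested, 0 passed in either direction (log2 fold changes from -0.53 to 0.38), and 6 reached 1 CPM. HOTAIR, an antisense RNA of the HOXC cluster known for binding chromatin repressors, was at 10.5 and 8.16 CPM in Hx1R8 and 9.60 and 9.19 CPM in Vehicle. HAGLR, beside HOXD1, was at 8.48 and 8.64 CPM in Hx1R8 and 8.34 and 8.50 CPM in Vehicle. HOTAIRM1, at the 3′ end of HOXA, was at 6.74 and 6.87 CPM in Hx1R8 and 6.06 and 7.29 CPM in Vehicle, and HAGLROS at 2.09 and 1.86 CPM in Hx1R8 and 2.46 and 2.20 CPM in Vehicle. HOTTIP, beside HOXA13, had 1 and 0 reads in Hx1R8 and 0 and 0 in Vehicle. Of HOTAIR, HAGLR, HOTAIRM1 and HAGLROS, the groups overlapped for all but HAGLROS, lower in Hx1R8. Per length the order differed from that in CPM, with mean TPM over all libraries of 19.9 for HOTAIRM1, 11.2 for HOTAIR, 11 for HOXC-AS2, 9.86 for HAGLROS and 5.62 each for HAGLR and HOXC-AS1. HOXC-AS1 had only 5 and 27 reads in Hx1R8 and 27 and 15 in Vehicle, a mean of 0.997 CPM. It ran from 1.63 to 8.68 TPM over the libraries, and HAGLR from 5.52 to 5.77 TPM.

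Genes beyond the cluster ends were transcribed at their own levels. Of 15 flanking genes 10 were tested and 0 passed in either direction (log2 fold changes from -0.09 to 0.72). CBX5, beside HOXC, was at 396 ± 12.2 CPM in Hx1R8 and 385 ± 7.72 CPM in Vehicle, and LNPK and MTX2, on either side of HOXD, at 71.9 ± 1.31 and 40.6 ± 1.18 CPM in Hx1R8 and 73 ± 3.42 and 41.1 ± 1.94 CPM in Vehicle (SD, n = 2 each). CALCOCO2, near HOXB, was at 58.7 ± 1.54 CPM in Hx1R8 and 54.6 ± 3.05 CPM in Vehicle (SD, n = 2 each). The homeobox gene EVX2, next to HOXD13, had 0 reads in all libraries, and EVX1, next to HOXA13, had 3 and 4 reads in Hx1R8 and 5 and 4 in Vehicle.

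Partners and regulators of HOX genes did not pass the test either. Of 9 TALE cofactors, homeodomain proteins that bind DNA with HOX proteins, 8 were tested and 0 passed (log2 fold changes from -0.53 to 0.27). PBX2 was at 80.6 ± 0.883 CPM in Hx1R8 and 85.5 ± 1.11 CPM in Vehicle (SD, n = 2 each; log2 -0.09, SE 0.05), PKNOX1 at 29.1 ± 0.605 CPM in Hx1R8 and 29.4 ± 0.611 CPM in Vehicle and PBX3 at 5.45 ± 0.0609 CPM in Hx1R8 and 5.14 ± 0.892 CPM in Vehicle. MEIS1 was at 2.43 ± 0.146 CPM in Hx1R8 and 2.01 ± 0.342 CPM in Vehicle (log2 0.27, SE 0.23). Of 6 ParaHox genes, the sister cluster of HOX, 2 were tested and 0 passed, with GSX1 at 2.90 and 3.05 CPM in Hx1R8 and 2.74 and 2.66 CPM in Vehicle and CDX2, an activator of posterior HOX genes in mouse, at 1.45 and 1.15 CPM in Hx1R8 and 0.972 and 1.10 CPM in Vehicle. PDX1 had 11 and 3 reads in Hx1R8 and 3 and 3 in Vehicle, and CDX1, CDX4 and GSX2 had none.

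Chromatin regulators that hold HOX clusters silent or active ranged widely in level, and none passed the test. All 31 Polycomb genes were tested, 0 passed and all 31 were bounded inside 1.5-fold. Their log2 fold changes ran from -0.16 to 0.15 and their mean levels from 4.64 CPM in BMI1 upward. Of all genes tested 81.4% were so bounded, a share to set beside both this list and the Trithorax and MLL genes. The share was 99.1% over the 5441 genes between 5 CPM and the level of HOXC10. That band is not matched to these lists: many genes of both lay above it, and BMI1 and KDM6A lay below it. The highest Polycomb genes were PCGF3 at 368 ± 4.26 CPM in Hx1R8 and 365 ± 0.65 CPM in Vehicle, SUZ12, a core subunit of the H3K27 methyltransferase, at 298 ± 2.51 CPM in Hx1R8 and 302 ± 22.5 CPM in Vehicle, RBBP4 (log2 0.01, SE 0.05) and RBBP7 (log2 0.07, SE 0.05). Of 21 Trithorax and MLL genes, which maintain HOX transcription, 0 passed and 20 were bounded within 1.5-fold, led by HCFC1 at 436 ± 16.2 CPM in Hx1R8 and 437 ± 14.9 CPM in Vehicle, DOT1L (log2 0.00, SE 0.05), KMT2D (log2 -0.05, SE 0.05) and MLLT1 (log2 -0.03, SE 0.05). The exception was KDM6A, an H3K27 demethylase, at 3.60 and 3.67 CPM in Hx1R8 and 3.83 and 5.26 CPM in Vehicle (log2 -0.32, SE 0.18), with a fold interval of 0.622 to 1.03. Of 18 retinoic acid pathway genes 17 were tested and 0 passed, with log2 fold changes from -0.91 to 0.09. The lowest was that of CRABP1, a cytoplasmic retinoic acid-binding protein, at 0.232 and 0.668 CPM in Hx1R8 and 0.914 and 0.867 CPM in Vehicle (SE 0.44, edgeR adjusted p = 0.9999, unadjusted p = 0.046), with a fold interval of 0.287 to 0.988. The more abundant members had log2 fold changes of ALDH1A1, a retinaldehyde dehydrogenase, at 0.01 (SE 0.06), RDH10 at 0.09 (SE 0.06) and RXRA at 0.03 (SE 0.07).

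Most markers of other cell types that carry HOX transcripts of their own were below 1 CPM, but not all. COL1A1, listed as a fibroblast marker, was at 7.32 and 8.16 CPM in Hx1R8 and 8.23 and 8.15 CPM in Vehicle, a level like that of HOXC11 or HOXD11, and THY1 at 2.85 and 2.39 CPM in Hx1R8 and 2.34 and 2.49 CPM in Vehicle. Of 8 fibroblast markers 6 were below 1 CPM, and the list summed to 11.7 and 12.3 CPM in Hx1R8 and 11.8 and 12 CPM in Vehicle, mostly from COL1A1 and THY1, with PDGFRA and PDGFRB next and COL3A1 at 0 reads. Of 8 blood cell markers 7 were below 1 CPM, the list summing to 2.38 and 3.29 CPM in Hx1R8 and 3.71 and 3.35 CPM in Vehicle, with PTPRC, CD3E and MS4A1 at 0 reads. Of 5 endothelial markers 4 were below 1 CPM, with sums of 1.92 and 2 CPM in Hx1R8 and 2.69 and 2.72 CPM in Vehicle and PECAM1 at 0 reads. The levels behind these sums were 1.02 ± 0.377 CPM in Hx1R8 and 1.35 ± 0.0295 CPM in Vehicle for CD14, and 1.42 ± 0.36 CPM in Hx1R8 and 1.98 ± 0.22 CPM in Vehicle for KDR (SD, n = 2 each), with CD68, LYZ, ITGAM, VWF and TEK each below these. Both the blood and the endothelial sums were lower in the Hx1R8 libraries, for blood narrowly, at 3.29 against 3.35 CPM at the closest. Of all genes tested 29.8% had groups that did not overlap. The part of the blood and endothelial markers and that of COL1A1 and THY1 in the HOX levels was not tested.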

How the data were processed

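RNA-seq was read from 2 Hx1R8 and 2 Vehicle libraries, each column of the deposited table matched to its library by title. The authors deposited raw counts per gene, with exon coordinates, strand and summed exon length, per the file headers. Per the submitters' processing notes STAR 2.7.9 and the build hg38 were used. The counting tool, the annotation and any strand setting are not stated. After 2 broken lines were left out, 28277 genes remained. The test was edgeR 4.0.16 under R 4.3.3 (quasi-likelihood, TMM, filterByExpr, group as the only term), with the SE and 95% interval derived from the log2 fold change and its F statistic, over all 14482 genes kept. The test was checked on simulated counts. TPM used the listed exon lengths. Members were named by mean CPM over all libraries: full values from 5 CPM, levels from 1 CPM, and from each list the 4 highest. EVX1, EVX2, HOTTIP, MEIS1, PDX1, CRABP1, KDM6A, BMI1, HOXC-AS1, HOXC-AS2, HOXD3, HOXD12, the scarce genes between neighbours and the sequences shown were picked after their values were seen. Members and lists were chosen with earlier results of these data known. Alternatives were other scalings, filters, DESeq2 1.42.0, the replicate number as a block and leaving out each library. Results for 1 HOX cluster gene and 2 listed genes are not reported here, though counts and sums include them.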

Additional observations from a re-analysis of the deposited data

How the results depend on the processing

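No HOX cluster gene was called under any of the 10 alternatives to the fit, and 28 genes at 1 CPM or more became 31 at a limit of 0.5 CPM, 22 at 2 CPM and 27 to 29 with 1 library left out. Over all genes, DESeq2 gave 1 gene higher in place of 2, and leaving out 1 library gave 2 to 41 higher and 1 to 38 lower, with both highest counts without Vehicle replicate 1; the lone library is then assumed to vary like the other group. The replicate block gave 2 higher and 1 lower, and 0 HOX cluster genes; libraries share only a number, with same-numbered deviations correlating at 0.0309 across genes. Shares of the HOX level were 28.3% for HOXA and 19.4% for HOXB per unshared base, and 30% for HOXA, 20.1% for HOXB and 10.8% for HOXD without division by length, the order of the clusters being kept in both. With 1 library left out, HOXA lay at 26.4 to 26.9%, HOXB at 20.5 to 20.6%, HOXC at 39.1 to 39.9% and HOXD at 12.6 to 13.5%. Of 140 recomputed log2 fold changes of 14 genes at 5 CPM or more, 15 changed sign, none of them called; the cause was not tested. Fits without 1 of the libraries gave -0.053 to 0.0859 for HOXB9, -0.144 to 0.0982 for HOXC5, -0.064 to 0.146 for HOXC9, -0.209 to 0.109 for HOXC11, -0.0708 to 0.158 for HOXC12, -0.13 to 0.151 for HOXD10 and -0.238 to 0.18 for HOXD11. DESeq2 gave -0.00075 for HOXD10 and -0.00757 for HOXD11, and the replicate block -0.0121 for HOXD11. Depth limits statements on genes below 1 CPM.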
